A study of Mus musculus with 30 samples.

Results

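Chemokine ligands are small secreted proteins that direct the movement of leukocytes through G protein-coupled receptors. The 10 ligands described here were chosen by name as ligands of microglia, with earlier results of these data known. They are *Ccl2*, *Ccl3*, *Ccl4*, *Ccl6*, *Ccl7*, *Ccl9*, *Ccl12*, *Cxcl2*, *Cxcl10* and *Cxcl16*, 10 of the 47643 genes in the deposited table. The table gives FPKM, which are fragments per kilobase of transcript normalized to the mapped fragments of the library, in 30 libraries of microglia. FPKM are a level per transcript length. The microglia were sorted as CD11b+ CD45med cells from 3 month-old mice.

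Microglia are the resident macrophages of the brain. They release chemokines when pattern recognition or cytokine receptors activate NF-kB, interferon regulatory factors or AP-1, and the transcripts of *Ccl3* and *Ccl4* are also known to rise within the time that a brain takes to be dissociated and sorted. *Ccl6* and *Ccl9* are ligands of Ccr1 that rodents express without stimulation in myeloid cells. *Ccl3* and *Ccl4* are inflammatory ligands, and *Ccl3* also binds Ccr1. *Ccl2*, *Ccl7* and *Ccl12* are ligands of the monocyte receptor Ccr2. *Cxcl2* attracts neutrophils through Cxcr2, *Cxcl10* is an interferon-induced ligand of Cxcr3, and *Cxcl16* is a membrane-anchored ligand of Cxcr6.

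The groups were male and female mice of 3 genotypes. Homo mice (*Bin1* flox/flox::Cx3Cr1-Cre+, 5 males and 5 females) and Het mice (*Bin1* wt/flox::Cx3Cr1-Cre+, 6 males and 5 females) carried the Cre, and the mice labelled WT (5 males and 4 females) are *Bin1* wt/flox without Cre in the legend of the study. Cre stands in the *Cx3cr1* locus, which encodes a chemokine receptor, so that Cre, the lower *Cx3cr1* dose and the loss of *Bin1* cannot be told apart in a comparison with WT. The protocol filed with the samples describes instead cultured neonatal microglia exposed to Tau, LPS and ATP, and the sorted cells of the study's methods were taken as the source.

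*Bin1* FPKM was between 230.3 and 290 in WT, between 117 and 164 in Het except in 2 libraries, and between 39.5 and 55.6 in Homo mice. The exceptions were Het-F-0206 at 42.7 and Het-M-0199 at 51.8, both within the Homo range. *Cx3cr1* was at 13.9 FPKM in the library labelled Het-F-0206 and between 610.0 and 1243 in all other Cre-positive libraries, against 1829 to 2344 in WT. WT-M-0202 also stood apart, with a summed FPKM of 8 neutrophil markers of 349 where the median of male WT was 72.2. For some values below that WT-M-0202 or the 2 Het libraries bear on, the value without them is also given. All other values include them. The summed FPKM of 10 microglial markers lay between 19345 and 27261. Relative sequencing depth was between 0.669 and 1.41 of the median library, and absolute depth is unknown.

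Genomic positions are those of GENCODE M21 on GRCm38, the assembly of the mm10 build used by the authors. Of the 10 genes, 8 lie on chromosome 11. *Ccl9* (chr11:83572919-83578636) and *Ccl6* (chr11:83587882-83593087) are neighbours on the minus strand with 9245 bp between them, and *Ccl3* and *Ccl4* follow on opposite strands with 13228 bp between them. *Ccl2*, *Ccl7* and *Ccl12* form a second group on the plus strand, 1469518 bp from *Ccl9* at its nearest end. *Cxcl2* and *Cxcl10* lie on chromosome 5. The promoters of 6 ligands matched a RefSeq entry on GRCm38.p6 and 4 are shown, each as the 250 bases before the annotated start, read 5′ to 3′ on the strand of the gene. *Ccl9* (chr11:83578637-83578886, minus strand) and *Ccl6* (chr11:83593088-83593337, minus strand) are shown as neighbours whose levels differed between groups to unequal extents. *Ccl3* (chr11:83649379-83649628, minus strand) had no overlap between male Homo and WT mice, and *Cxcl10* (chr5:92348890-92349139, minus strand) varied most from library to library among the ligands above 0 in all libraries. Capitals mark matches to a TATA motif (TATAAA, searched on the strand of the gene) and, on both strands, to letters of a kB site (GGGA, 2 free bases, T, 1 free base, CC), an ETS site (GGAAGT), an AP-1 site (TGANTCA) and an interferon-stimulated response element or ISRE (GAAA at both ends of 2 free bases). These letters, including the loosened kB letters, were chosen after the promoters had been looked at.
Ccl9: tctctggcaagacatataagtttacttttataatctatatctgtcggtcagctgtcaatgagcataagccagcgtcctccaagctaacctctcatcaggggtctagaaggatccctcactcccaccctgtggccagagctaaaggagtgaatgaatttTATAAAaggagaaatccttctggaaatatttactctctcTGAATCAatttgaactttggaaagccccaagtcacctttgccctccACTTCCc
Ccl6: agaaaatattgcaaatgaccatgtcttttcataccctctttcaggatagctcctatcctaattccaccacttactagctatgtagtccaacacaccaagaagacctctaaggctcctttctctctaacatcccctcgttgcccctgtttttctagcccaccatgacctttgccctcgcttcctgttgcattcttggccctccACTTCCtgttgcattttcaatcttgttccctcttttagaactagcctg
Ccl3: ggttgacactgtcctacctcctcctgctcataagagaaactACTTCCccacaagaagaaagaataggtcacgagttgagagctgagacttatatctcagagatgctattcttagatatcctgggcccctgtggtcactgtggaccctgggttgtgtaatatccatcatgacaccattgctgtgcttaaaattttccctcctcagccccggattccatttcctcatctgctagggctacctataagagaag
Cxcl10: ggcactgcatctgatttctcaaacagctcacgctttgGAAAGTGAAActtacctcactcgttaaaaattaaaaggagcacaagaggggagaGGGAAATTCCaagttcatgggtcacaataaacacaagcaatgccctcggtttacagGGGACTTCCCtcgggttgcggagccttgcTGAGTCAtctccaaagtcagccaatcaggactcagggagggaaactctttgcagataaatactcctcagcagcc

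The *Ccl9* window held a TATA match 92 to 87 bases before the start, an AP-1 match and an ETS match, whereas the *Ccl6* and *Ccl3* windows each held 1 ETS match and none of the other letters. The *Cxcl10* window held 2 kB matches, an ISRE match 213 to 204 bases before the start, an AP-1 match, and an ETS match that overlaps its second kB match. In the windows not shown, *Ccl12* held 2 ETS matches and a TATA match, and *Cxcl2* held a kB match that reads on both strands and overlaps itself. Over 27025 promoter windows of the same length, the kB letters were found in 3.23%, ETS in 20.0%, AP-1 in 6.87%, ISRE in 3.04% and TATA in 8.12%. In their most alike aligned stretch of 60 bases, the *Ccl6* and *Ccl9* windows shared 41 bases (68.3%).

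The level per transcript length had nearly the same order in every library. *Ccl6* was the most abundant ligand, with a mean of 208.04 FPKM over the 30 libraries, and exceeded *Ccl12* (131 FPKM) in 30 of 30 libraries. *Ccl12* exceeded *Ccl9* (103 FPKM) in 26 of 30 libraries, so these neighbours in the order did not separate in every library. *Ccl9* stood above *Cxcl16* (44.9 FPKM) in 30 of 30. *Cxcl16* exceeded *Ccl4* (31.9 FPKM), and *Ccl4* exceeded *Ccl3* (18.6 FPKM), in 29 of 30 libraries each. The monocyte-attracting *Ccl2* (4.90 FPKM) was below *Ccl3* in 30 of 30 libraries, and it exceeded *Cxcl10* (3.14 FPKM) in 26. *Ccl7* (1.11 FPKM) was listed at 0 in 1 library. *Cxcl2* had a mean of 0.0294 FPKM, was above 0 in 6 of 30 libraries, and did not pass the filter of a mean of at least 0.1 FPKM, so 9 of the 10 ligands were tested. The 10 ligands made up between 90.4% and 96.8% (median 95.1%) of the summed FPKM of all 38 chemokine ligands in the table, and *Ccl6*, *Ccl9* and *Ccl12* together between 67.1% and 83.2%.

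**Figure D1:**
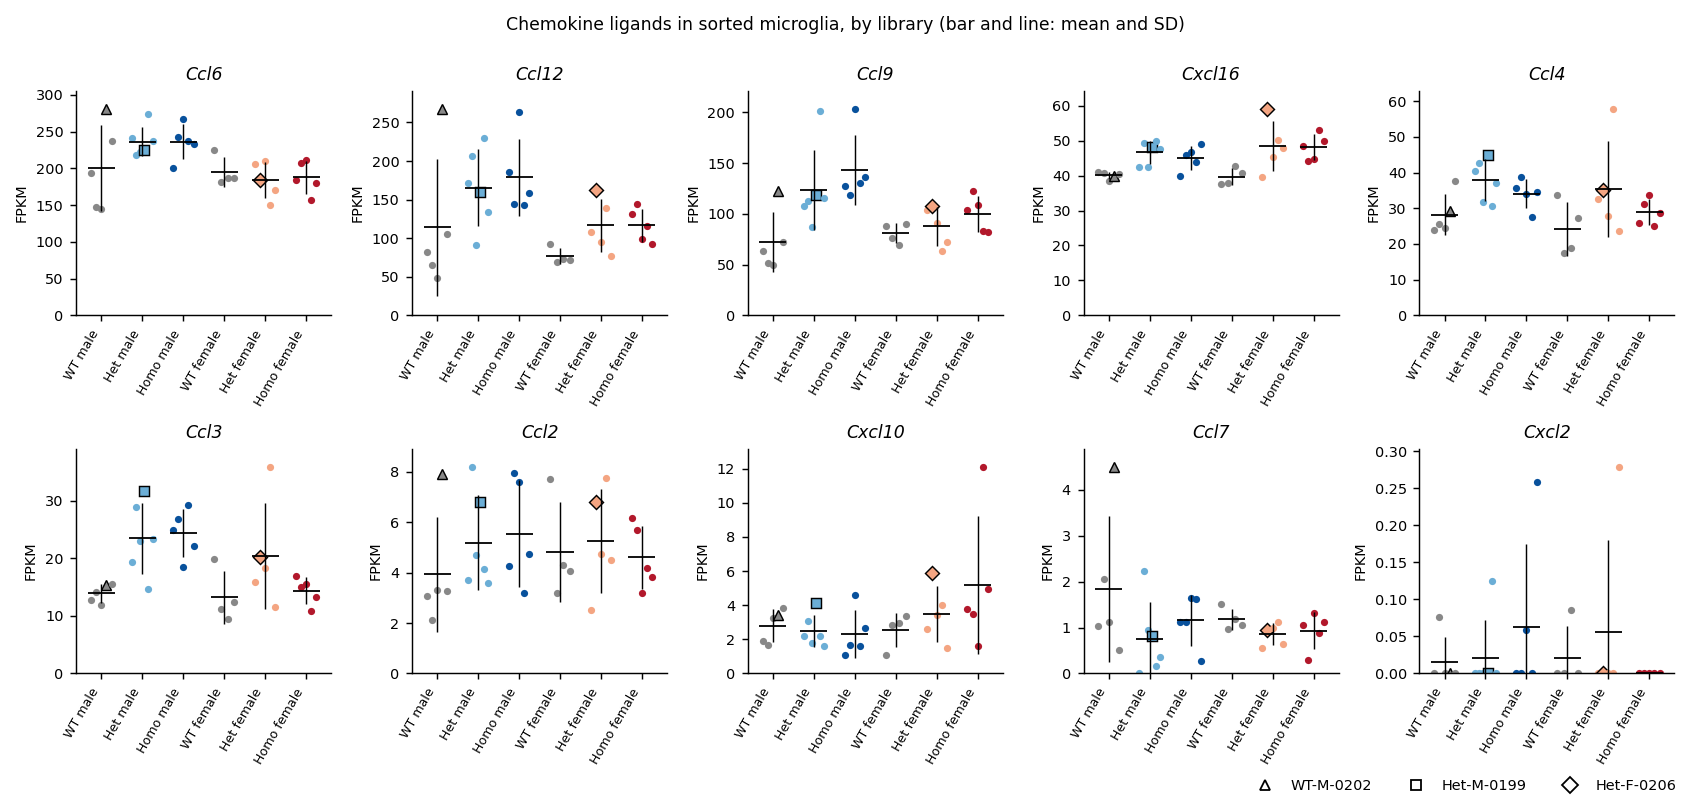
FPKM of the 10 ligands (vertical axes from 0) in each of the 30 libraries by genotype and sex, with the mean (bar) and SD (line) of each group; a triangle, square and diamond mark WT-M-0202, Het-M-0199 and Het-F-0206. *Ccl9* was above 118 FPKM in the 5 male Homo libraries and below 73 FPKM in all male WT libraries but WT-M-0202.

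Libraries of 1 group differed unequally between ligands. The coefficient of variation within groups had a median of 7.38% for *Cxcl16* and 11.1% for *Ccl6*. It was 22.9% for *Ccl9*, 28.7% for *Ccl12* and 42.8% for *Cxcl10*. Over all libraries, the highest *Cxcl10* value was 10.99 times the lowest, whereas the highest *Cxcl16* value was 1.58 times the lowest. A difference of the same size was therefore less easily told from the spread for *Cxcl10* than for *Cxcl16*.

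*Ccl9* (ENSMUSG00000019122) was the only ligand tested that passed the thresholds given below in male Homo mice with the settings as reported. Its FPKM in male WT was 63.1, 51.6, 49.9, 122.01 and 72.5, and in male Homo 128, 119, 204, 131 and 136. The groups overlapped only through WT-M-0202 at 122.01 FPKM. WT males averaged 71.8 ± 29.5 FPKM (SD, n = 5) and Homo males 143 ± 34.3 FPKM (SD, n = 5). On the log2 scale of scaled FPKM plus 0.1, which understates the change of low genes, *Ccl9* rose by 0.97 (SE 0.19, limma, adjusted p = 0.00921). Among the 9 ligands tested, 1 was called higher (an adjusted p under 0.05 together with a change of over 1.5-fold) and 0 lower, where 1.17% of all 16897 genes tested were called higher. Leaving out any single library of the 2 groups kept the call, with a log2 fold change between 0.85 and 1.17. It was not kept in a fit of only male WT and Homo libraries (0.97, limma, adjusted p = 0.096) or in a fit without the mice numbered below 150 (0.97, limma, adjusted p = 0.232), which leaves 2 of the 5 male Homo mice. Without the mice numbered below 150, 10 of all 16897 genes tested were called in male Homo mice, against 306 with all libraries. Numbers below 150 were held by 3 of 5 male Homo, 2 of 6 male Het and 0 of 5 male WT mice, so number range and genotype are partly tied in each male comparison with WT. With the range as a covariate *Ccl9* was still called (1.03, limma, adjusted p = 0.0376).

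Other values also differed between male WT and male Homo mice. The index of lncRNA against protein-coding level had a median of -2.21 in WT and -1.75 in Homo mice on the log2 scale, and with it as a covariate the log2 fold change of *Ccl9* was 0.80 (limma, adjusted p = 0.0772). This covariate was added after the data were seen. Of the 7 neutrophil markers tested, *Ngp*, *Lcn2*, *S100a9* and *Ltf* were called lower in male Homo mice. Over all 16897 genes tested, 306 were called in that comparison in either direction, and 1.17% of all genes were called higher. All 4 neutrophil calls were lost without the mice numbered below 150. Those of *S100a9* and *Ltf* were also lost in 8 and 6 of the 10 fits without a library. The summed FPKM of 8 neutrophil markers was 43.9 to 349 in WT and 0 to 80.8 in Homo mice. Of 5 monocyte markers tested, *Chil3* was called lower, and none of 8 markers of border macrophages or of 10 microglial markers was called. Whether these shifts had a part in the ligand levels was not tested. In bulk RNA, fewer cells of a type and less RNA per cell cannot be told apart.

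In male Het mice, *Ccl9* FPKM was 87.5 at the lowest, 114 at the median and 201.3 at the highest. This range overlapped with WT through WT-M-0202 alone. The log2 fold change was 0.74 (SE 0.19, limma, adjusted p = 0.0966). None of the 9 ligands was called in male Het mice, where 0.124% of all genes were called higher. Without WT-M-0202, *Ccl9* passed in Het (0.94, limma, adjusted p = 0.00793) and in Homo mice (1.17, limma, adjusted p = 0.000449).

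In females, *Ccl9* was at 88.2, 76.1, 69.6 and 89.6 FPKM in WT and at 104, 123, 109.1, 82.7 and 82.1 FPKM in Homo mice. The groups overlapped. *Ccl9* had a log2 fold change of 0.30 (SE 0.21) in Homo and 0.09 (SE 0.21) in Het mice, each with a limma adjusted p of 1. The change in males exceeded that in females by 0.67 on the log2 scale in Homo mice (SE 0.28, limma interaction, adjusted p = 0.525) and by 0.65 in Het mice (SE 0.28, adjusted p = 0.86). A difference between the sexes in *Ccl9* was thus not established at these group sizes. None of the 9 ligands passed either interaction, in which 0% of all genes were called.

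*Ccl6* (ENSMUSG00000018927), the neighbour of *Ccl9* and a ligand of the same receptor, was not called in any comparison. Its male Homo values lay within the range of male WT, and without WT-M-0202 at 281 FPKM the groups still overlapped. WT-M-0258 at 237 FPKM was above Homo-M-0093 at 200.4 FPKM and Homo-M-0190 at 233 FPKM. *Ccl6* was at 194, 148, 144, 281 and 237 FPKM in male WT and at 200.4, 242, 267, 237.6 and 233 in male Homo mice. Its log2 fold change was 0.19 (SE 0.13, limma, adjusted p = 0.383), and 0.32 without WT-M-0202 (limma, adjusted p = 0.105). In males the Het value was 0.21, and in females the values were -0.06 in Homo and -0.09 in Het mice. The ratio of *Ccl9* to *Ccl6* within a library averaged 0.352 ± 0.0488 for WT males (SD, n = 5) and 0.605 ± 0.104 for Homo males (SD, n = 5). The ratios did not overlap, with a highest value of 0.434 in WT and a lowest of 0.491 in Homo mice, so WT-M-0202, high in both genes, fell on the WT side. It averaged 0.417 ± 0.0461 for WT females (SD, n = 4) and 0.532 ± 0.0526 for Homo females (SD, n = 5), which overlapped. Ratios were chosen after the values had been seen and were not tested.

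**Figure D2:**
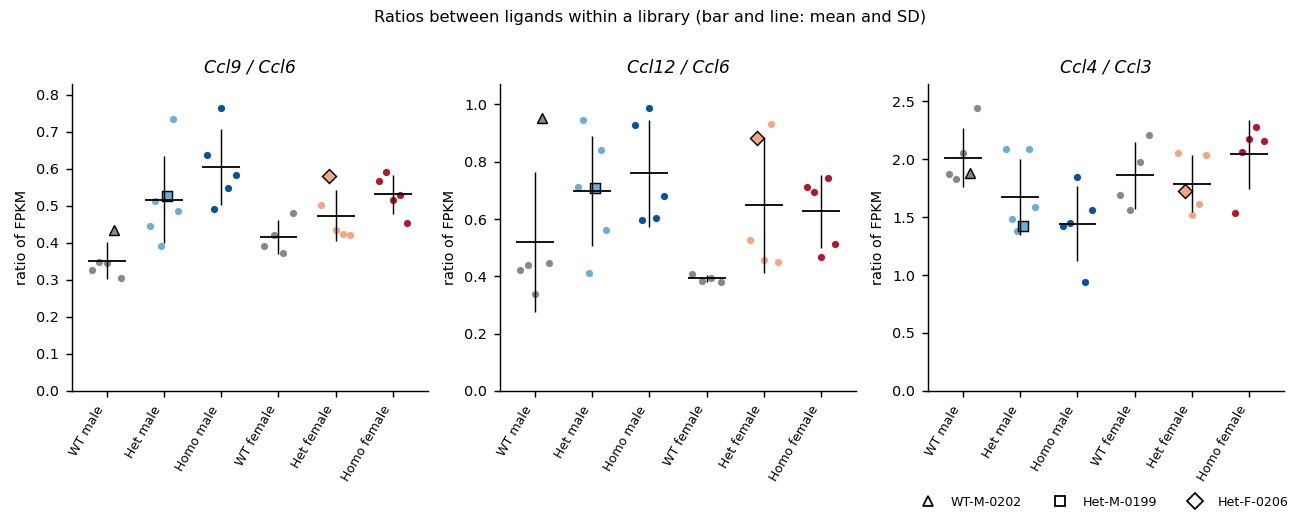
Ratio of the FPKM of *Ccl9* to *Ccl6*, *Ccl12* to *Ccl6* and *Ccl4* to *Ccl3* (vertical axes from 0) in each library by genotype and sex, with the mean (bar) and SD (line). The *Ccl9* to *Ccl6* ratio was at most 0.434 in male WT, WT-M-0202 included, and at least 0.491 in male Homo mice.

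*Ccl3* (ENSMUSG00000000982; chr11:83647844-83649355), the inflammatory Ccr1 ligand, was at 12.8, 14.1, 11.9, 15.5 and 15.5 FPKM in male WT. It was at 25.0, 26.8, 18.4, 29.3 and 22.2 FPKM in male Homo mice. All Homo values were above all WT values, also after scaling between libraries. It was the only one of the 10 ligands without overlap in this comparison, where 2.56% of all genes were higher without overlap. The log2 fold change was 0.71 (SE 0.24), and it was not called (limma, adjusted p = 0.0839). Of 13 other settings, array weights alone gave a call (0.80, limma, adjusted p = 0.0419), and 12 did not. Adding mouse number range to the model gave a log2 fold change of 0.68 (limma, adjusted p = 0.428). Adding the lncRNA index instead gave 0.90 (limma, adjusted p = 0.122). Leaving out mice numbered below 150 gave 0.87 (limma, adjusted p = 0.438). In male Het mice *Ccl3* was between 14.7 and 31.6 FPKM with a median of 23.2, and overlapped with WT (log2 fold change 0.64, SE 0.23, limma, adjusted p = 0.245). Het-M-0199 held the highest value, and without both doubtful Het libraries the log2 fold change was 0.53. WT females had 13.2 ± 4.57 FPKM (SD, n = 4), Het females 20.4 ± 9.25 (SD, n = 5) and Homo females 14.3 ± 2.33 (SD, n = 5), with overlap.

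*Ccl4* (ENSMUSG00000018930), the inflammatory neighbour of *Ccl3*, differed less in male Homo mice. WT males had 28.2 ± 5.74 FPKM (SD, n = 5), Het males 38.0 ± 5.87 (SD, n = 6) and Homo males 34.1 ± 4.11 (SD, n = 5), with overlap. The log2 fold change was 0.21 (SE 0.19, limma, adjusted p = 0.527) in male Homo and 0.52 (SE 0.20, limma, adjusted p = 0.89) in female Het mice. The ratio of *Ccl4* to *Ccl3* averaged 2.01 ± 0.253 for WT males (SD, n = 5) and 1.44 ± 0.326 for Homo males (SD, n = 5), with overlap. For WT females it averaged 1.86 ± 0.287 (SD, n = 4) and for Homo females 2.04 ± 0.295 (SD, n = 5).

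*Ccl12* (ENSMUSG00000035352; chr11:82101845-82103400), a ligand of Ccr2 in mice, depended on WT-M-0202. Its FPKM in male WT was 81.8, 65.0, 48.8, 268 and 106, and in male Homo 186, 144, 263, 143 and 158. WT-M-0202 at 268 was the highest of all 30 libraries, and the other 4 WT values lay below the Homo values. With all libraries the log2 fold change was 0.81 (SE 0.28, limma, adjusted p = 0.093). Without WT-M-0202 *Ccl12* passed in male Homo (1.17, limma, adjusted p = 0.00362) and in male Het mice (1.05, limma, adjusted p = 0.0214). Then 2 of the 9 ligands were called higher in each, where 400 of all 16897 genes were called higher in male Homo and 38 in male Het mice. With array weights and all libraries *Ccl12* also passed in male Homo mice (0.85, limma, adjusted p = 0.0469). With the lncRNA index as a covariate and all libraries it was 0.42 in male Homo (limma, adjusted p = 0.567) and 0.43 in male Het mice (limma, adjusted p = 0.678).

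WT-M-0202 was the highest of the male WT libraries for *Ccl2*, *Ccl6*, *Ccl7*, *Ccl9* and *Ccl12*, 5 of the 10 ligands, and for the summed neutrophil (349 FPKM) and monocyte markers (18.7 FPKM). Whether those markers and the ligands share a source in this library was not tested.

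In females *Ccl12* was at 91.8, 69.6, 73.6 and 71.2 FPKM in WT and at 131, 144, 99.1, 116 and 92.5 FPKM in Homo mice. The groups did not overlap, and did not after scaling. The difference on the log2 scale was 0.59 (SE 0.30, limma, adjusted p = 1). *Cxcl16* (ENSMUSG00000018920), which needs cleavage to be released, was also without overlap in this comparison, at 37.5 to 42.7 FPKM in WT and 44.2 to 53.0 FPKM in Homo mice. After scaling the lowest Homo value was 43.45 and the highest WT value 43.41. Its log2 fold change was 0.27 (SE 0.10, limma, adjusted p = 1). These 2 of 10 ligands were read against 1.65% of all genes higher without overlap. None of the 9 ligands was called in female Homo mice, where 0.0651% of all genes were called higher.

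In female Het mice none of the 9 ligands was called, where 0.13% of all genes were called higher, and none of the 10 was higher without overlap, against 1.58% of all genes. The smallest adjusted p of a ligand was 0.866, for *Cxcl16* (log2 fold change 0.27, SE 0.10, limma). *Cxcl16* was at 39.6, 59.2, 45.3, 50.2 and 48.0 FPKM in female Het mice. The library labelled Het-F-0206 held the highest value, and without it the log2 fold change was 0.20. That library was also the highest of its group for *Ccl9*, *Ccl12* and *Cxcl10*. In male Het mice *Cxcl16* was above WT in every library (42.4 to 49.9 against 38.5 to 40.9 FPKM), the only ligand of 10 without overlap there against 0.515% of all genes, but after scaling the groups overlapped. On the log2 scale the difference was 0.14 (SE 0.09, limma, adjusted p = 0.478).

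**Figure D3:**
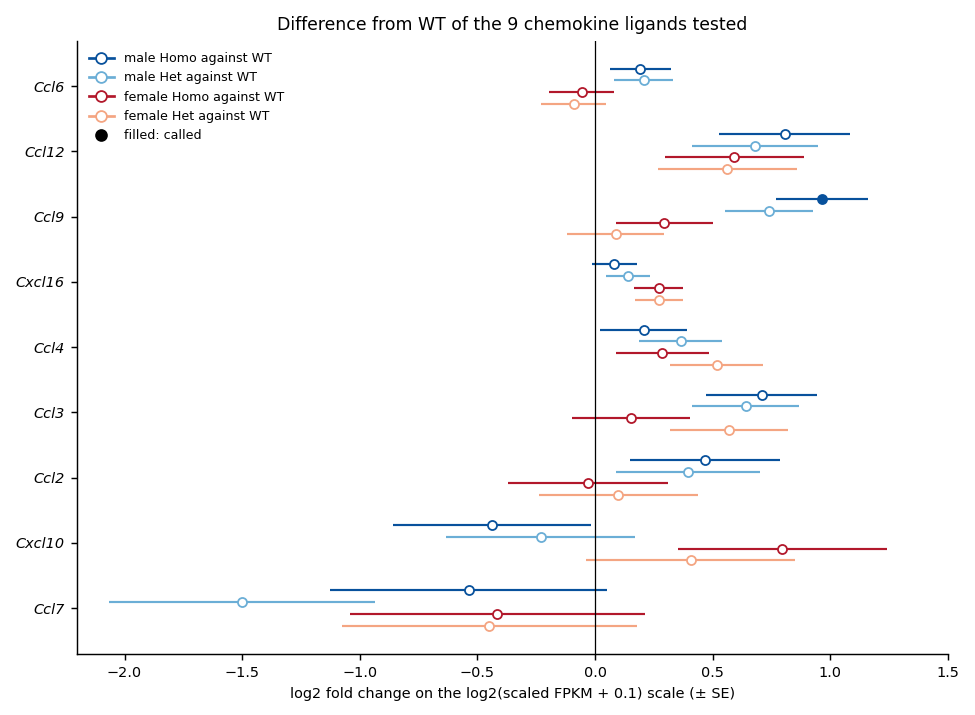
Log2 fold change (horizontal axis, on the log2(scaled FPKM + 0.1) scale) with its SE for the 9 ligands tested in the 4 comparisons with WT of the same sex; filled points were called. *Ccl9* in male Homo mice, at 0.97, was the only call, and *Ccl7* was below 0 in all 4 comparisons without a call.

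The less abundant ligands did not pass in any comparison. *Ccl2* (ENSMUSG00000035385), the main attractant of monocytes, averaged 3.93 ± 2.28 FPKM for WT males (SD, n = 5) and 5.55 ± 2.11 for Homo males (SD, n = 5), with overlap and a log2 fold change of 0.47 (SE 0.32, limma, adjusted p = 0.387). Without WT-M-0202 the log2 fold change of *Ccl2* was 0.74 (limma, adjusted p = 0.129). *Ccl7* (ENSMUSG00000035373), its neighbour, had the largest negative estimate, -1.50 in male Het mice (SE 0.57, limma, adjusted p = 0.275). Its FPKM there was between 0 and 2.23 against 0.505 to 4.50 in male WT, so the groups overlapped. With Het-M-0100 at 0 FPKM the estimate followed the pseudocount, at -0.67 with a pseudocount of 1 and -2.15 with 0.01, and was -1.01 without that library. *Cxcl10* (ENSMUSG00000034855; chr5:92346638-92348889) was at 1.88, 1.65, 3.27, 3.41 and 3.82 FPKM in male WT and at 1.10, 1.65, 4.58, 1.58 and 2.67 in male Homo mice. In female Homo mice it was at 3.75, 3.51, 1.62, 12.1 and 4.93 FPKM, with Homo-F-0234 well above the others. Its log2 fold change was -0.44 (SE 0.42) in male and 0.80 (SE 0.45) in female Homo mice, and the difference of -1.24 between the sexes did not pass (SE 0.61, limma interaction, adjusted p = 0.537). *Cxcl2* (ENSMUSG00000058427) was above 0 in 1 of the male WT libraries (0.0756 FPKM) and in 2 of the male Homo libraries (0.0589 and 0.258 FPKM), and was not tested.

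Over the 9 ligands, 7 had a positive log2 fold change in male Homo mice, with a median of 0.21 where the median of all genes was 0.03. In male Het mice 7 were positive (median 0.36), in female Homo mice 6 (median 0.27) and in female Het mice 7 (median 0.27). Homo and Het mice of a sex were compared with the same WT libraries, so these counts are not independent. The summed FPKM of the 10 ligands averaged 477 ± 180 for WT males (SD, n = 5), 642 ± 98.2 for Het males (SD, n = 6) and 671 ± 98.5 for Homo males (SD, n = 5), which overlapped. The sums of male WT lay between 325 and 771 FPKM, WT-M-0202 included, and no average without that library was taken. For WT, Het and Homo females the averages were 438 ± 47.9 (SD, n = 4), 503 ± 61.4 (SD, n = 5) and 507 ± 48.7 (SD, n = 5).

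Homo and Het mice were also compared directly, since both carry Cre. None of the 9 ligands was called in males, where 0% of all genes were, or in females, where 0.0118% were. *Ccl9* differed between Homo and Het by 0.23 in males (SE 0.19, limma, adjusted p = 0.998) and by 0.21 in females (SE 0.19, limma, adjusted p = 1) on the log2 scale. Without Het-M-0199 and Het-F-0206, which had *Bin1* in the Homo range, 0 ligands were again called, and *Ccl9* differed by 0.24 in males (SE 0.20, limma, adjusted p = 1) and by 0.28 in females (SE 0.21, limma, adjusted p = 1). Between male and female WT mice 0 of the 9 ligands were called, against 0.0473% of all genes, with *Ccl9* at -0.25 (SE 0.21, limma, adjusted p = 1) in males relative to females. Among male Cre-positive mice, 7.42% of all genes tested and none of the 9 ligands were called between those numbered below 150 and the others, the nearest being *Cxcl16* (-0.20, SE 0.08, limma, adjusted p = 0.119). That share rests on single libraries, since of the 16897 genes 1253 were called with all libraries, 1 without Het-M-0100, 2 without Het-M-0108, 2 without Homo-M-0189 and 2400 without Het-M-0203. The numbers are as the labels give them, and no date of collection was used here.

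The receptors of these ligands were examined as a list of 24 genes, 18 of which were tested. In male Homo mice 2 were called higher and 0 lower, with a median log2 fold change of 0.15 over the list, where 1.17% of all genes were called higher. *Ccr1*, the receptor of Ccl3, Ccl6 and Ccl9, was at 4.95 to 13.1 FPKM in male WT and 13.8 to 20.4 FPKM in male Homo mice, and rose by 1.08 on the log2 scale (SE 0.28, limma, adjusted p = 0.0333). The groups did not overlap, but the call was lost when any of 7 of the 10 libraries was left out (highest adjusted p 0.0959, limma). *Ackr3*, an atypical receptor that takes up Cxcl12 without G protein signaling, rose by 1.26 (SE 0.30, limma, adjusted p = 0.0243), a call lost in 4 of the 10 fits without a library. *Ccr2* and *Cxcr6*, at 3.46 and 0.159 FPKM in male WT, were low and not called. None of the 18 receptors was called in the other 3 comparisons with WT.

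Genes that induce the ligands or transmit the signal were examined as a list of 27, all tested. In male Homo mice 4 were called higher and 0 lower, where 1.17% of all genes were called higher, while the median log2 fold change of the list was -0.07. *Tnf*, a cytokine that activates NF-kB, was at 0.681 to 1.88 FPKM in male WT and 3.40 to 6.75 FPKM in male Homo mice, and rose by 1.95 (SE 0.37, limma, adjusted p = 0.00657). The groups did not overlap, and the call was kept without any single library but lost without the mice numbered below 150. In that last fit 10 of all 16897 genes tested were called in male Homo mice. *Nfkbiz*, a nuclear IkB protein that acts on a part of the NF-kB targets, rose by 1.13 (SE 0.23, limma, adjusted p = 0.0111), and was not called without Homo-M-0093 (adjusted p 0.0506). *Il1a* rose by 0.60 (SE 0.15, limma, adjusted p = 0.0267) and *Il6* by 0.90 (SE 0.23, limma, adjusted p = 0.0352), calls lost in 6 and 7 of the 10 fits without a library. With the mouse number range or the lncRNA index as a covariate none of these 4 was called, and of the receptors *Ackr3* was still called and *Ccr1* was not. *Ackr3* was not called after quantile normalization, in the model of male WT and Homo mice alone, or without the mice numbered below 150. *Nfkbia*, an inhibitor that NF-kB itself induces, had a log2 fold change of -0.44 (SE 0.17, limma, adjusted p = 0.128). None of the 27 was called in the other 3 comparisons with WT.

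Immediate early genes were examined since tissue dissociation can induce them together with *Ccl3* and *Ccl4*. Of 21 genes 20 were tested, and in male Homo mice 1 was called higher and 2 lower. Of all 16897 genes tested, 306 were called in that comparison in either direction, and 1.17% were called higher. *Ier3*, which is induced by NF-kB and stress, rose by 1.26 (SE 0.33, limma, adjusted p = 0.0362). The transcription factor *Klf2* fell by 1.69 (SE 0.34, limma, adjusted p = 0.00988) and the heat shock gene *Hspa1b* fell by 4.04 (SE 0.96, limma, adjusted p = 0.0244). *Fos* had a log2 fold change of -0.12 (SE 0.45, limma, adjusted p = 0.908) and *Jun* of 0.29 (SE 0.19, limma, adjusted p = 0.369). The calls of *Ier3* and *Hspa1b* were each lost in 5 of the 10 fits without a library. All 3 calls were lost with the mouse number range or the lncRNA index as a covariate, in the model of male WT and Homo mice alone, and without the mice numbered below 150. Whether handling of the tissue had a part in the *Ccl3* values was not tested. None of 14 further chemokine ligands tested of 28 listed, and none of 8 genes tested of 11 for shedding and matrix glycans, was called in any of the 4 comparisons.

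**Figure D4:**
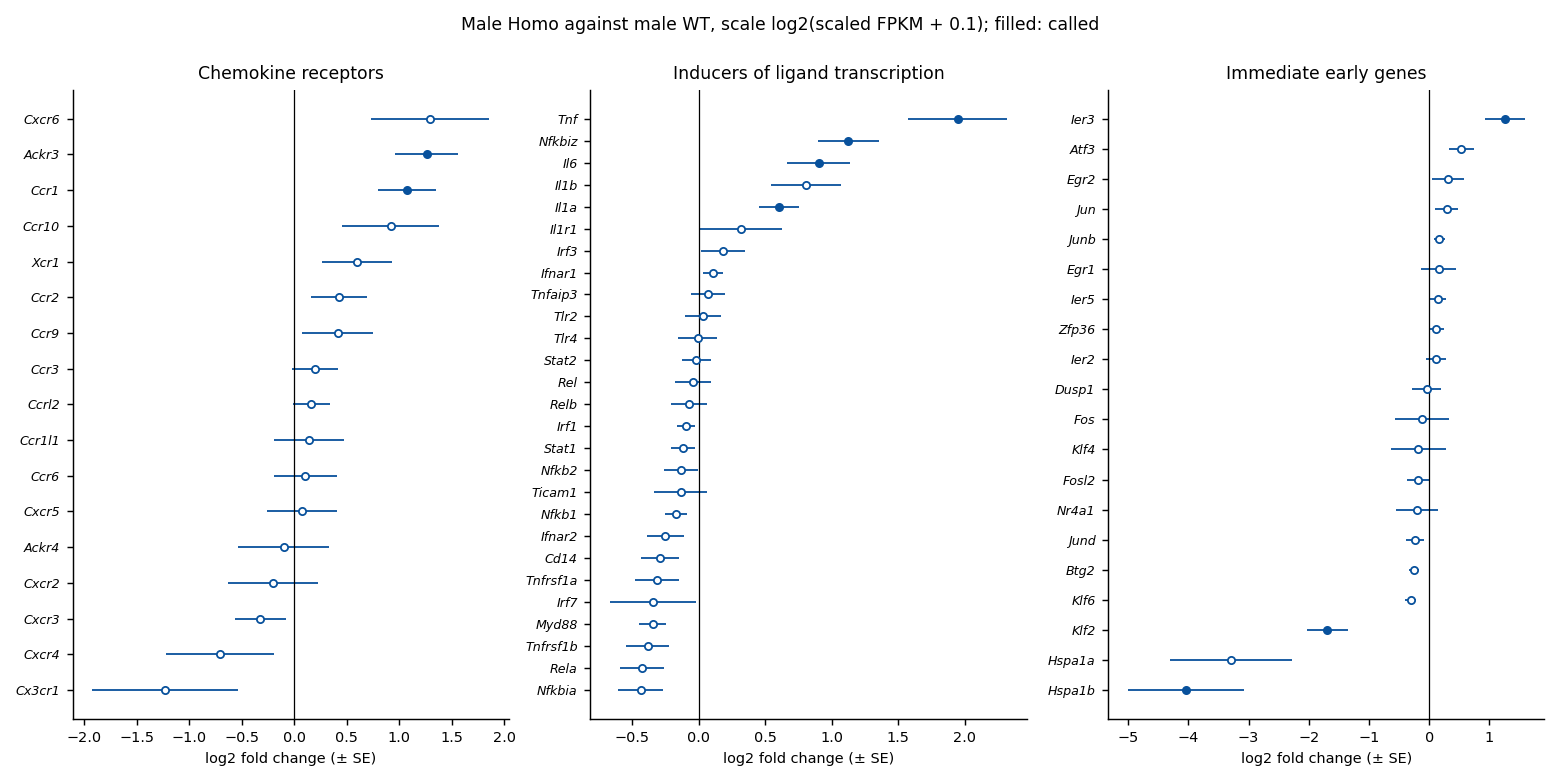
Log2 fold change in male Homo against male WT mice (horizontal axis, on the log2(scaled FPKM + 0.1) scale) with its SE for the tested genes of 3 lists but 1 receptor, ordered by value; filled points were called. *Tnf* (1.95), *Nfkbiz*, *Il6* and *Il1a* among the inducers and *Ackr3* and *Ccr1* among the receptors were called higher, and most genes of each list lay near 0.

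The ligands were also compared with each other across the 30 libraries, which share scaling and depth, as a description. *Ccl3* and *Ccl4* had the highest Spearman's rho of the pairs, 0.81, and 0.68 once each group mean had been subtracted. *Ccl9* and *Ccl12* had a rho of 0.78, and 0.58 within groups. *Ccl6* and *Ccl9* had a rho of 0.67, and 0.73 within groups. *Ccl3* and *Ccl9*, both higher in the male Homo means, had a rho of 0.45 that became 0.02 within groups, so in libraries of 1 group a high *Ccl9* did not go with a high *Ccl3*.

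**Figure D5:**
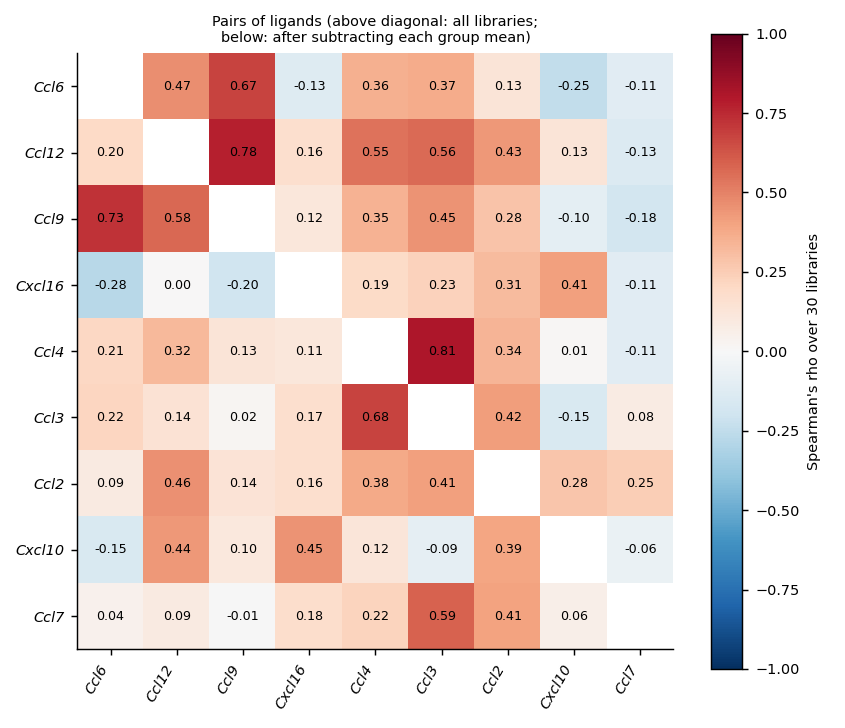
Spearman's rho (colour scale from -1 to 1) of each pair of the 9 ligands tested over 30 libraries, above the diagonal for all libraries and below it after subtracting each group mean. *Ccl3* with *Ccl4* (0.81 and 0.68) and *Ccl6* with *Ccl9* (0.67 and 0.73) kept high values in both parts.

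For each ligand with a mean of at least 1 FPKM, the genes outside the list with the most similar pattern over the 30 libraries were found by Spearman's rho. *Ccl3* was most like *Il1a* (0.86), *Otud1* (0.85) and *Tnf* (0.83). The nearest genes to *Ccl9* were *Ecscr* (0.86), *Hilpda* (0.85) and *Syngr1* (0.84), and those to *Ccl12* were *Cebpzos* (0.88), *Cox7c* (0.86) and *Rpl35* (0.86). *Ccl6* was most like *Pafah1b3* (0.85), *Ramp1* (0.82) and *Rtraf* (0.82). *Cxcl16* was most like *H2-D1* (0.82), *Il2rg* (0.82) and *Cd22* (0.81). *Ccl4* was most like *Lyl1* (0.76), followed by *R74862* and *Gm6741* (0.69 each). The nearest genes to *Ccl2* were *Rps6-ps4*, *Metrn* and *Arl11* (0.63 to 0.68), those to *Ccl7* were *Gmeb2*, *Rfx5* and *Zfp3* (0.64 to 0.66), and those to *Cxcl10* were *Nptxr*, *Gpn2* and *Ifitm3* (0.59 to 0.65), so the less abundant ligands had weaker partners.

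Counting could blur some of these genes. *Cxcl16* overlaps *Zmynd15* (median 3.64 FPKM), *Ccl6* overlaps *E230016K23Rik* (median 0.213 FPKM), *Cxcl10* overlaps *Art3* (median 0.460 FPKM) and *Ccl2* overlaps *Gm17268* (0 FPKM in all libraries) on the other strand, and without strand the reads of such partners cannot be told apart. The transcripts of *Ccl9* shared 59 of their 2996 words of 50 bases with other genes, and those of *Cxcl2* shared 126 of 2159 with *Cxcl3*. The other 8 ligands shared 0 words of 50 bases.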

How the data were processed

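The authors sequenced RNA of sorted microglia, aligned reads to mm10 and the Ensembl.R84 gene model with OSA4, estimated abundance with RSEM and deposited FPKM. Versions of these tools are not given in the sources used here. The FPKM hold no read totals, so no counting error is given, and the DESeq2 fit of the authors, which needs counts, was not repeated. Of the deposited columns, 6 matched no listed sample and were not used.

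For each library a median-of-ratios factor divided the FPKM, and log2 values with a pseudocount of 0.1 were compared by limma 3.58.1 in R 4.3.3 for the 16897 genes with a mean of at least 0.1 FPKM. One linear model with an intensity trend covered the 6 groups. Calls needed a Benjamini-Hochberg adjusted p under 0.05, taken over all genes tested, and more than a 1.5-fold change. Tables were made with Python 3.11.15. Replicates are mice with a number each, and p-values measure the spread between these mice. Relative depth was read from the densest peak of the log ratios of low FPKM between each library and a reference library. It is given relative to the median library. The lncRNA index subtracts the mean log2 level of 10266 protein-coding genes from that of 676 lncRNA genes, and its biotypes were settled after the data were seen.

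The ligands, lists and tests were chosen with earlier results of these data known. All 10 ligands are named. From each list the genes called in a comparison with WT are named, at most 4 per list and comparison, and for each ligand the 3 genes of highest Spearman's rho. *Ccr2*, *Cxcr6*, *Nfkbia*, *Fos* and *Jun* were named after their values were seen. Marker lists of lymphocytes, astrocytes, neurons, oligodendrocytes and endothelium gave 0 calls. The values of 1 receptor are not reported here.

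Settings varied were the pseudocount, the filter, the scaling, array weights, the groups in the model, the fold threshold, covariates for mouse number range and lncRNA index, the mice numbered above 150 alone, and single libraries left out.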

Additional observations from a re-analysis of the deposited data

Results flagged for a closer look

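Each of 59 sets of 1 ligand in 1 group was examined for a library whose gap to the nearest value took up more of the range than Dixon's 95% limit allows. Chance alone gives about 1 in 20 such sets, and 10 were found. Of these, 5 were *Cxcl2*, where 1 library above 0 among values at or near 0 must stand apart, which leaves 5 of 54 sets of the other ligands. WT-M-0202 stood apart in male WT for *Ccl12* (268 FPKM, next 106) and for *Ccl2* (7.92 FPKM, next 3.30). *Ccl9* stood apart in Het-M-0203 (201.3 FPKM, next 119) and in Homo-M-0109 (204 FPKM, next 136), and without Homo-M-0109 the log2 fold change of *Ccl9* in male Homo mice was 0.85 (limma, adjusted p = 0.0376). *Ccl6* stood apart in WT-F-0122 (224 FPKM, next 187), and without it the log2 fold change in female Homo mice was 0.000112. For *Cxcl2* the libraries that stood apart were WT-M-0177 (0.0756 FPKM), Het-M-0203 (0.125 FPKM), Homo-M-0190 (0.258 FPKM), WT-F-0200 (0.0855 FPKM) and Het-F-0257 (0.279 FPKM), and all other values of those groups were 0 except 0.0589 FPKM in Homo-M-0109.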

How the results depend on the processing

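In male Homo mice 1 ligand was called with the settings as reported and 3 with array weights (*Ccl3*, *Ccl9* and *Ccl12*). Calls were 0 in a fit of only the groups compared, with late mouse numbers alone or with the lncRNA index as a covariate. Of all 16897 genes tested, 306 were called in either direction as reported and 480 with array weights. In the fits without a ligand call 44, 10 and 68 genes were called, in the same order. The ligand counts thus rose and fell with the counts over all genes. Leaving out 1 library gave 1 to 2 ligand calls in male Homo mice and 0 to 2 in male Het mice. In both, 2 were reached only without WT-M-0202 (*Ccl9* and *Ccl12*). Without that library 400 of all genes were called higher in male Homo and 38 in male Het mice. The number of ligands called in the other 8 comparisons was 0 under every alternative run. Direction changed only for small estimates. In female Homo mice *Ccl2*, at -0.030 as reported, was 0.00720 with array weights, 0.0827 with mouse number range as a covariate, 0.206 with late mouse numbers alone, and from -0.189 to 0.206 with 1 library left out. *Ccl6*, at -0.057, was 0.000112 with late mouse numbers alone and from -0.108 to 0.0035 with 1 library left out. In female Het mice *Ccl2*, at 0.0987, was -0.0127 without Het-F-0206 and Het-M-0199, and from -0.0786 to 0.342 with 1 library left out. WT-F-0122 was the only female library numbered below 150, so among females the fit with late mouse numbers alone left out that library. For *Ccl2* and *Ccl6* in female Homo mice its estimates were the same as those without WT-F-0122. The cause of the changes in direction was not tested. The other directions of the 9 ligands in the 4 comparisons with WT were kept in every alternative run. Low FPKM of *Ccl7* and *Cxcl2* rest on few fragments. No paired analysis was possible because mouse numbers are not shared between groups.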
